A study of Mus musculus with 10 samples.

Results

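Tcf21, Nr2f1, Nr2f2 and Maf are transcription factor genes of the interstitial progenitors of the fetal testis. They were chosen by name from the gene symbols of the deposited count table, and all 4 were found among its 24470 gene entries. The table came from male C57BL/6 gonads of E12.5 embryos, cultured for 48 h and freed of the mesonephros after culture. The 5 GPI samples received 75 µM CP 316819, an inhibitor of glycogen phosphorylase, and the 5 vehicle samples received DMSO. Each mouse, M1 to M5, gave 1 gonad to each treatment. GPI reaches every cell type of the explant, and the RNA was that of the whole gonad. The comparison asks how these genes respond when glycogen breakdown is blocked.

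The interstitium of the fetal testis holds mesenchymal progenitors from which steroidogenic fetal Leydig cells and other stromal cells arise. TCF21 is a basic helix-loop-helix factor that binds DNA as a heterodimer with E proteins and is known in gonadal and renal mesenchyme. NR2F1 and NR2F2, also called COUP-TFI and COUP-TFII, are closely related orphan nuclear receptors, and NR2F2 is also a determinant of venous endothelial identity. MAF is a basic leucine zipper factor present in interstitial cells and in macrophages.

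Maf rose and Tcf21 fell with GPI, while neither COUP-TF gene passed the test. Libraries held 10203679 to 15590223 counts with vehicle and 11025409 to 15635322 with GPI. Values below called normalized counts are counts scaled by edgeR's TMM method to the mean effective library size. Of the 13941 genes that passed the low-count filter, the quasi-likelihood test of edgeR, adjusted by the Benjamini-Hochberg method over these genes, called 3198 (22.9%) at an FDR of 0.05, 11.1% higher and 11.9% lower with GPI. Scaled by total counts only, 1238 of 3210 called genes were higher, so the split between directions depends on the scaling. All 4 genes passed the filter; 1 was called higher and 1 lower. Their median log2 fold change was -0.03, and that of all tested genes was 0.02. In bulk RNA, fewer cells of a type and less RNA per cell cannot be told apart.

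Maf (Entrez 17132) lies on the minus strand of chromosome 8 of mm10, from 115703253 to 115706894, and no other entry of the table overlaps it. Its normalized counts with vehicle were 2114, 2106, 1688, 2101 and 1608 in mice M1 to M5, and with GPI they were 2635, 2964, 2483, 2365 and 3003. Every GPI value lay above every vehicle value, and M5, the lowest with vehicle, was the highest with GPI. The means were 1923 ± 253 with vehicle and 2690 ± 285 with GPI (SD, n = 5 each). Its log2 fold change was 0.49 (95% CI 0.29 to 0.69, edgeR quasi-likelihood, Benjamini-Hochberg adjusted p = 0.00172), which is 1.40-fold, and it was higher in 5 of 5 mice. Within mice the log2 ratio ran from 0.17 in M4 to 0.90 in M5.

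Tcf21 (Entrez 21412) lies on the minus strand of chromosome 10, from 22817263 to 22820128, also with no overlapping entry. With vehicle it had 1156, 1572, 1758, 1339 and 1431 normalized counts in M1 to M5, and with GPI 1096, 1161, 1221, 1049 and 1326. Each mouse was lower with GPI, but the groups overlapped: M1, the lowest vehicle gonad, lay below 3 of the 5 GPI gonads. Means were 1451 ± 228 and 1171 ± 109 (SD, n = 5 each). The log2 fold change was -0.30 (95% CI -0.48 to -0.12, edgeR adjusted p = 0.0197), lower in 5 of 5 mice, a GPI to vehicle ratio of 0.812. The call held without M1 or M5 and was lost without the others: the adjusted p was 0.0586 without M2, 0.0942 without M3 and 0.0743 without M4, and over all alternatives it ran from 0.00739 to 0.0942.

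Nr2f2 (Entrez 11819) is on the minus strand of chromosome 7, from 70351950 to 70366746, and had the most counts of the 4 genes. Its normalized counts were 3824, 5014, 4219.9, 3643 and 4112 with vehicle and 3707, 3949, 3278, 3277 and 4135 with GPI. The groups overlapped; M2 and M3 were clearly lower with GPI, while M1 and M5 were nearly level between treatments. The means were 4162 ± 528 and 3669 ± 388 (SD, n = 5 each). The log2 fold change of -0.18 (95% CI -0.34 to -0.02) had an unadjusted p of 0.0308 and an adjusted p of 0.104 in edgeR's test, with 4 of 5 mice lower. Scaled by total counts only, the log2 fold change was -0.23 and passed the threshold (adjusted p = 0.0441); over all alternatives the adjusted p ran from 0.0441 to 0.293.

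Nr2f1 (Entrez 13865) is on the minus strand of chromosome 13, from 78188973 to 78198982. With vehicle it had 517, 173, 205, 212 and 203 normalized counts, and with GPI 287, 318, 219, 268 and 229.9. The vehicle gonad of M1 stood far above the other vehicle gonads, and above every GPI gonad. Means were 262 ± 143 with vehicle and 264 ± 40.7 with GPI (SD, n = 5 each). The log2 fold change was 0.12 (95% CI -0.29 to 0.53, edgeR adjusted p = 0.724), with 4 of 5 mice higher. Without M1 the vehicle mean was 199 ± 17.4 and the GPI mean 259 ± 44.8, the remaining groups did not overlap, and the log2 fold change was 0.35 (adjusted p = 0.121). M1 held the outlying vehicle value and was the only mouse lower with GPI, so leaving it out favors such a gap. Without M2 the log2 fold change was -0.07 (adjusted p = 0.833) and had the opposite sign; over all alternatives the adjusted p ran from 0.121 to 0.977.

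**Figure D1:**
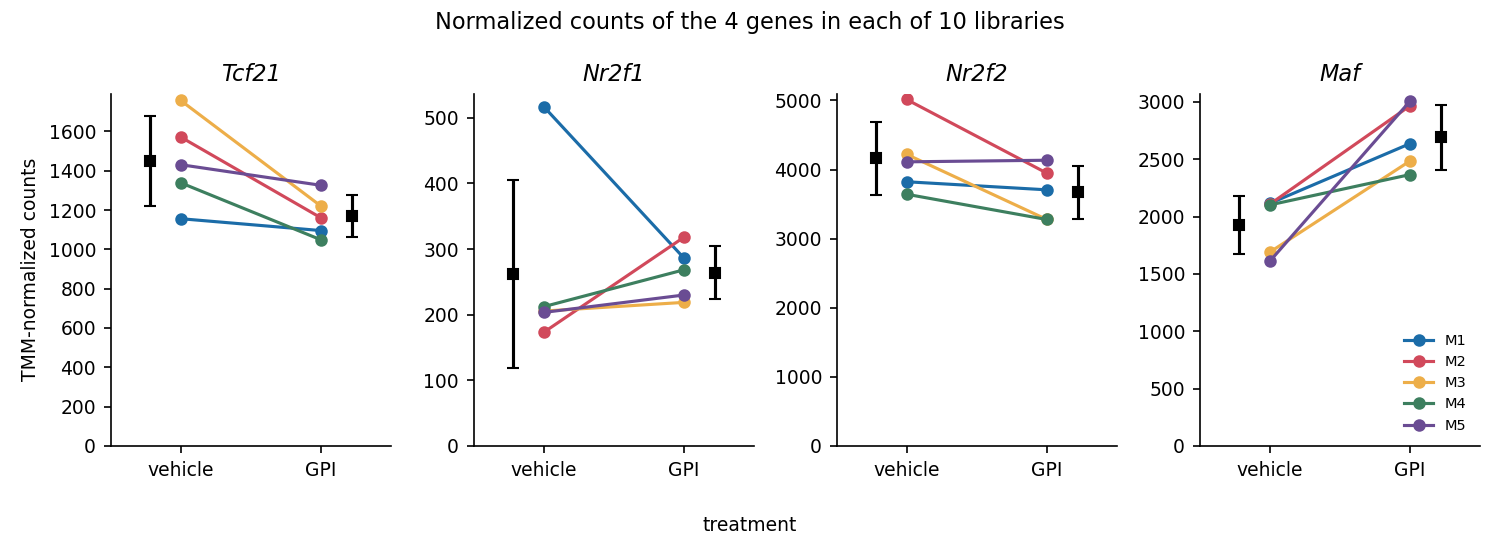
TMM-normalized counts (y axis, from 0) of each gene with vehicle and with GPI; a line joins the gonads of 1 mouse, and black squares with bars are the mean and SD of 5 gonads. Maf is higher in each of 5 GPI gonads than in any vehicle gonad, and the vehicle gonad of M1 stands apart for Nr2f1 at 517.

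**Figure D2:**
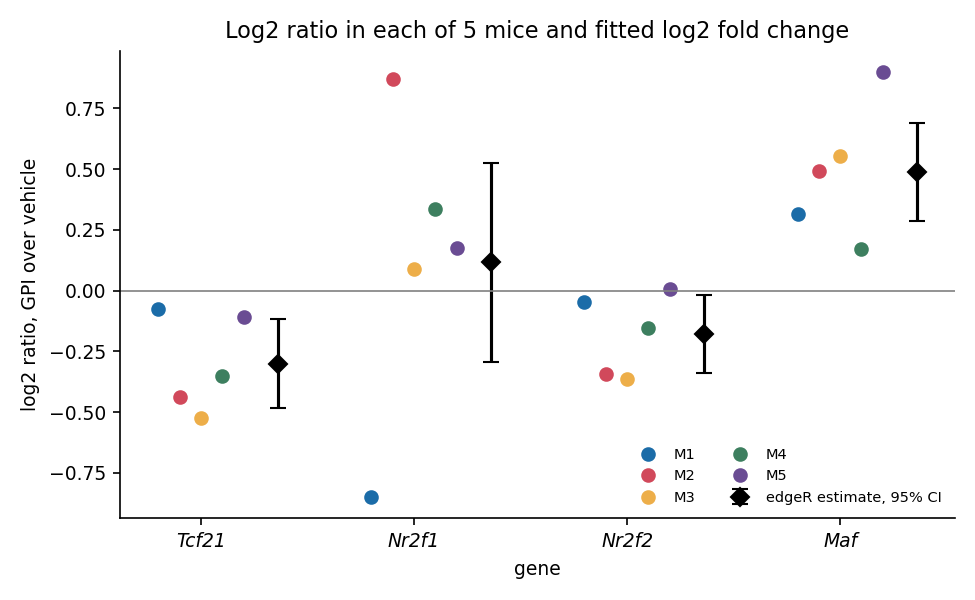
Log2 ratio of GPI over vehicle (y axis) for each mouse, colored points, and edgeR's log2 fold change with its 95% confidence interval, black diamond. The 5 ratios lie above 0 for Maf and below 0 for Tcf21, and for Nr2f1 they run from -0.85 in M1 to 0.87 in M2.

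The COUP-TF genes are near paralogs, and their sequences bear on how far their counts measure separate genes. In the GENCODE M21 annotation (GRCm38) both have a coding exon of 528 bases, and 446 bases (84.5%) of it are the same at the same position. The longest run they share inside that exon is 27 bases, and 59 bases over the whole of their longest transcripts linked to RefSeq. The paired reads that the paper describes were longer than either run, so no full read lies inside a shared run. Counting of reads of 1 gene for the other was not tested. A stretch of 127 bases around the exon's shared run, with that run in capitals, was taken from the minus strand at chr13:78195320-78195446 for Nr2f1 and at chr7:70357921-70358047 for Nr2f2. In this stretch 111 of 127 bases are the same.
Nr2f1: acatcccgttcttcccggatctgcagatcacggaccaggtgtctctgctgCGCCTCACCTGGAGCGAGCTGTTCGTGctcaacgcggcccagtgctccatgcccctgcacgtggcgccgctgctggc
Nr2f2: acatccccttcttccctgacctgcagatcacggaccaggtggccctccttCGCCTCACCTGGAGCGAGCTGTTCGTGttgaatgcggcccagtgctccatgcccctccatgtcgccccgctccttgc

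The paired ratios of the COUP-TF genes were compared within libraries, where scaling drops out. Nr2f1 minus Nr2f2, as a difference of log2 ratios, was -0.80, 1.21, 0.45, 0.49 and 0.17 in M1 to M5. M1 had the opposite sign to the other mice, and the mean was 0.30 ± 0.73 (SD). An exact two-sided sign-flip permutation test over the 5 mice gave p = 0.438, where the smallest p that 5 mice allow is 0.0625.

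Reads were counted without regard to strand, and each COUP-TF gene overlaps an entry on the plus strand. B130024G19Rik shares 1364 bases with the interval of Nr2f2. It had 877, 982, 941, 876 and 1124 normalized counts with vehicle and 734, 759.6, 750.2, 499 and 830.3 with GPI. The groups of B130024G19Rik did not overlap, and it fell with a log2 fold change of -0.44 (95% CI -0.64 to -0.24, edgeR adjusted p = 0.00334, lower in 5 of 5 mice). A830082K12Rik shares 966 bases with the interval of Nr2f1. Its normalized counts were 234, 172, 121, 176 and 167 with vehicle and 283, 196, 130.3, 167 and 216 with GPI, groups that overlapped, with a log2 fold change of 0.18 (adjusted p = 0.366, higher in 4 of 5 mice). M1 was the highest of the vehicle gonads for A830082K12Rik as it was for Nr2f1. How read pairs in an overlap were counted cannot be read from the deposited counts. The counting options that the paper lists include none for assigning a read pair to several genes. The shared bases are those of whole gene intervals, not of exons alone. The part of these overlapping entries in the counts of Nr2f1 and Nr2f2 was not tested. Both entries were named for their position.

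Levels of the 4 genes were compared as TMM-scaled CPM (counts relative to library size) per kilobase of exon inside each entry. With vehicle, Tcf21 was at 96.5 ± 15.2, Nr2f2 at 80.1 ± 10.2, Maf at 42.9 ± 5.63 and Nr2f1 at 8.75 ± 4.78 (SD, n = 5). Tcf21 and Nr2f2 overlapped in their ranges over libraries, whereas Maf lay below both in every vehicle library and Nr2f1 below Maf. With GPI the same order held, at 77.8 ± 7.22, 70.6 ± 7.48, 59.9 ± 6.35 and 8.82 ± 1.36, and the neighbors Tcf21 and Nr2f2, and Nr2f2 and Maf, overlapped in range. The level of Maf relative to Nr2f2 in the same library, which is free of scaling, was 0.640, 0.486, 0.463, 0.668 and 0.453 with vehicle and 0.823, 0.869, 0.877, 0.835 and 0.841 with GPI. These ratios did not overlap between treatments and were closer together with GPI than with vehicle. Relative to Tcf21, Maf was at 0.613, 0.449, 0.322, 0.526 and 0.377 with vehicle and at 0.806, 0.856, 0.682, 0.756 and 0.759 with GPI, again without overlap. The relative level of Nr2f1 to Nr2f2 was 0.234, 0.0598, 0.0844, 0.101 and 0.0858 with vehicle and 0.134, 0.140, 0.116, 0.142 and 0.0964 with GPI. It was higher with GPI in M2 to M5 and lower in M1.

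Among the 4 genes, Tcf21 and Nr2f2 had the closest log2 ratios over mice, with a root mean square difference of 0.13, against 0.67 to 0.83 for the other 5 pairs. That difference was not tested, and only Tcf21 was called. Their log2 ratios were -0.08, -0.44, -0.52, -0.35 and -0.11 for Tcf21 and -0.04, -0.34, -0.36, -0.15 and 0.01 for Nr2f2. M2 and M3 had the lowest ratios of both genes. The sequence before their start sites is shown because their ratios lay closest. RefSeq windows of 250 bases before the start (GRCm38.p6) were at hand for 3 of the 4 genes, with Maf not in the table. The window of Nr2f2 is at chr7:70366747-70366996 and that of Tcf21, shortened to the 219 bases that no GENCODE exon of the gene covers, at chr10:22820175-22820393, both on the minus strand. Capitals mark matches on either strand to CANNTG (the E-box, bound by the class of factors TCF21 belongs to), AGGTCA (bound by nuclear receptors such as the COUP-TFs), TGCTGA (the core of MAF sites) or AGATAA (bound by GATA factors).
Nr2f2: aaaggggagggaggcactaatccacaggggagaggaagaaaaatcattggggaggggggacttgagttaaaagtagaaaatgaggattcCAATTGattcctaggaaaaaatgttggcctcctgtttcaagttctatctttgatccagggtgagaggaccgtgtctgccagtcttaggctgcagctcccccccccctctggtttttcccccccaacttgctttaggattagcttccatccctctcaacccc
Tcf21: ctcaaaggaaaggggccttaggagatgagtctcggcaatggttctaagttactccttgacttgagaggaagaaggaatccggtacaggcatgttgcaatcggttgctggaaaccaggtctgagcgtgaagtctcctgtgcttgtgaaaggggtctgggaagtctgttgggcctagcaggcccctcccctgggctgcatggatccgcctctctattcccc

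Nr2f2 held 1 E-box, CAATTG, starting 161 bases before its start, and 0 matches to the other motifs. Tcf21 held 0 matches. Of 32851 windows of 250 bases, 66.2% held CANNTG, 14.0% AGGTCA, 16.1% TGCTGA and 9.99% AGATAA, and at 219 bases the shares were 62.0%, 12.47%, 14.4% and 9.01%. A match describes letters and no binding was measured.

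The tested genes whose 5 log2 ratios lay closest to each of the 4 were found among 11104 others with a mean of at least 50 counts. For Tcf21 these were Acvr2b, an activin receptor gene (root mean square difference 0.05), Slc25a24 (0.07) and Capzb, an actin capping subunit gene (0.07). Capzb was called lower (log2 fold change -0.31, edgeR adjusted p = 0.0162, lower in 5 of 5 mice), and Acvr2b (-0.28, adjusted p = 0.0634) and Slc25a24 (-0.31, adjusted p = 0.0590) were not called. For Nr2f2 they were Brip1os (0.03), Nudt4 (0.06) and Spire1 (0.07), none of them called. Those closest to Maf were B3galt1 (0.11), Atp6v0c (0.12) and Cpped1 (0.12), and B3galt1 (log2 fold change 0.53, adjusted p = 0.00773) and Cpped1 (0.48, adjusted p = 0.00819) were called higher. Nr2f1 was closest to Ror1, a WNT5A receptor gene (0.12), Gm15713 (0.13) and Fzd1, a frizzled receptor gene (0.17). By this choice they have the ratios of Nr2f1 in M1 and M2: Ror1 was at -0.91 and 0.73 there, and Fzd1 at -0.53 and 0.74.

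**Figure D3:**
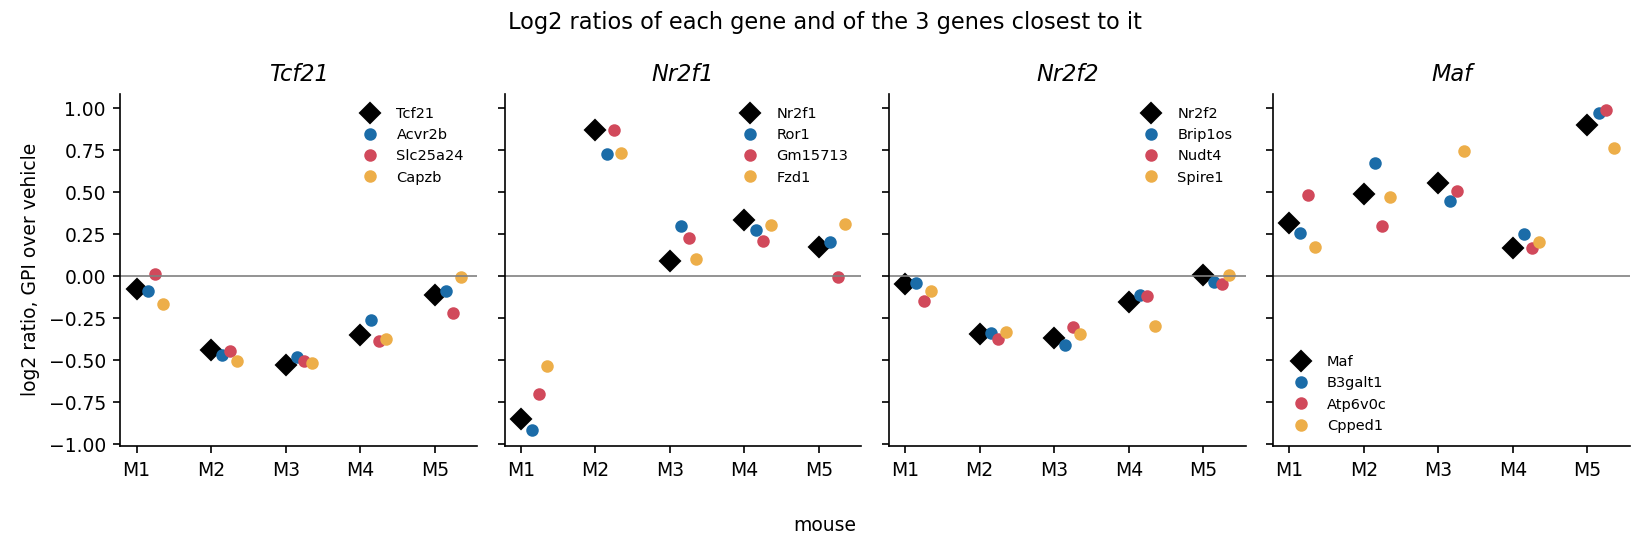
Log2 ratio of GPI over vehicle (y axis) in each of 5 mice (x axis) for each gene, black diamonds, and for the 3 genes closest to it, colored points set slightly to the right. The colored genes were chosen for their closeness, so that they follow the diamonds by construction.

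Relatives of the 4 genes moved in either direction or were not called. Of 5 MAF family genes listed beside Maf, 3 were tested, with 1 called higher (33.3%, beside 11.1% of all genes; 0 to 2 under the alternatives), 1 lower (33.3%, beside 11.9%) and a median log2 fold change of 0.32. Small MAF proteins lack a transactivation domain: Maff fell (log2 fold change -1.44, edgeR adjusted p = 0.000522, lower in 5 of 5 mice), Mafk rose (0.52, adjusted p = 0.00876, higher in 5 of 5), with the call but not the direction lost without M3 (0.48, adjusted p = 0.0509), and Mafg was at 0.32 (adjusted p = 0.0630). Mafa, a factor of pancreatic beta cells, had 0 counts in all 10 libraries, and Nrl, a photoreceptor factor, at most 3.

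Of the basic helix-loop-helix relatives and partners of TCF21, 8 of 10 were tested, with a median log2 fold change of -0.13. EdgeR called 0 higher and 2 lower (25%, beside 11.9% of all genes, and 1 or 2 under the alternatives). Tcf4, an E protein gene and the one with the most counts in the list, fell from 7453 ± 294 to 5041 ± 509 normalized counts (SD, n = 5; log2 fold change -0.57, adjusted p = 6.44e-05, lower in 5 of 5 mice). The E protein gene Tcf12 was at -0.03 (adjusted p = 0.802) and Tcf3 at -0.22 (adjusted p = 0.127). Tcf15, known from somites and endothelium, fell from a low level (31.8 ± 2.80 to 9.64 ± 6.09, log2 fold change -1.83, adjusted p = 0.00654). Where 10 counts in every library were required, Tcf15 was not tested, since its counts with GPI were 2 to 17. Scx, a tendon factor, was at 0.90 (adjusted p = 0.0762), and Msc, the closest relative of Tcf21, had at most 7 counts in a library.

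Among 5 other NR2 receptor genes 3 were tested, and edgeR called 0 of them (beside 22.9% of all genes), as did DESeq2 and limma-voom, with 0 at an unadjusted p under 0.05. Nr2c2, with the most counts, was at 0.08 (adjusted p = 0.527), Nr2c1 at -0.05 (adjusted p = 0.845) and Nr2f6, the third gene of the COUP-TF branch, at -0.12 (adjusted p = 0.793). Cofactors of the COUP-TFs gave 0 calls by edgeR among 6 tested genes (beside 22.9% of all genes), with a median of -0.03. Under the alternatives 0 or 1 was called lower. Only 1 gene, Bcl11a, had an unadjusted p under 0.05, and DESeq2 and limma-voom called it. In edgeR it was called without the replicate block (adjusted p = 0.0396), with total counts only (0.0429), without the low-count filter (0.0163) and without M2 (0.00189). The other alternatives did not call it. Zfpm2, encoding FOG2, had 1429 ± 181 normalized counts with vehicle and 1349 ± 32.6 with GPI (log2 fold change -0.07, adjusted p = 0.601), and the corepressor gene Ncor1 was at 0.01 (adjusted p = 0.919). Bcl11a was at -0.53 (edgeR adjusted p = 0.0634, lower in 4 of 5 mice).

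Other transcription factors of the gonadal mesenchyme and early gonad had calls in both directions. Of 18 tested, edgeR called 3 higher (16.7%, beside 11.1% of all genes) and 4 lower (22.2%, beside 11.9%; 3 to 6 under the alternatives), with a median log2 fold change of -0.09. Nr5a1, which drives steroidogenic genes, rose from 261 ± 60.7 to 556 ± 70.3 normalized counts (log2 fold change 1.11, adjusted p = 1.35e-05, higher in 5 of 5 mice). Hes1, a Notch target that restrains differentiation, fell (-0.99, adjusted p = 1.21e-05, lower in 5 of 5). Gata4, a gonadal GATA factor gene, rose (0.53, adjusted p = 0.000845, higher in 5 of 5). Lhx9 was at 0.03 (adjusted p = 0.866) and Wt1 at -0.14 (adjusted p = 0.182).

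Signaling genes of the interstitium gave 4 calls higher (26.7%, beside 11.1% of all genes; 3 to 6 under the alternatives) and 2 lower (13.3%, beside 11.9%) among 15 tested, with a median of -0.02. Pdgfra, the receptor of these progenitors, rose (log2 fold change 0.33, edgeR adjusted p = 0.00220, higher in 5 of 5 mice), and Wnt5a was at -0.02 (adjusted p = 0.932). Jag1, a Notch ligand, fell (-0.62, adjusted p = 0.000637, lower in 5 of 5). Nes, an intermediate filament gene of perivascular progenitors, fell from 6681 ± 361 to 2608 ± 277 normalized counts (-1.36, adjusted p = 3.65e-08), and Cxcl12 rose (0.80, adjusted p = 5.14e-06, higher in 5 of 5).

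Of 12 stromal matrix genes tested, 1 was called higher and 7 lower (58.3%, beside 11.9% of all genes), with a median log2 fold change of -0.42 beside 0.02 for all genes. Under the alternatives 6 to 8 were called lower. Col6a3 fell from 4204 ± 220 to 1780 ± 374 normalized counts (-1.26, edgeR adjusted p = 4.85e-07) and Postn from 3708 ± 755 to 1198 ± 370 (-1.66, adjusted p = 6.93e-07), each in 5 of 5 mice. Col1a1 fell less (-0.48, adjusted p = 0.000387, lower in 5 of 5), while Col1a2 was at -0.03 (adjusted p = 0.819) and Col3a1 at -0.23 (adjusted p = 0.0539). Col3a1 was lower in 5 of 5 mice, and its call depended on the setting. It was called by DESeq2 (adjusted p = 0.0300) and limma-voom (0.0332), under the other scalings and filters, and without M5. Without the replicate block, or without M1, M2, M3 or M4, it was not called.

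**Figure D4:**
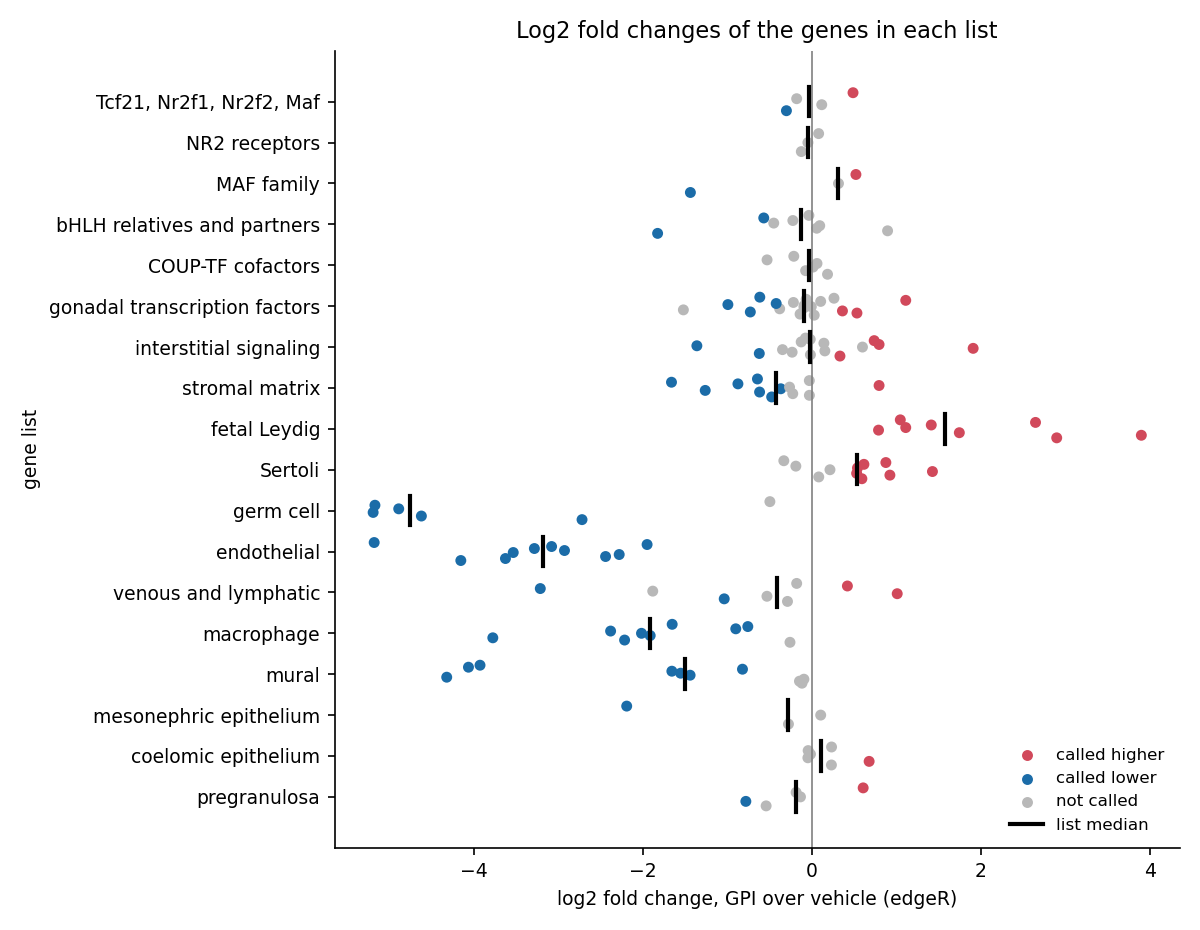
Log2 fold change of GPI over vehicle (x axis, edgeR) of every tested gene in each gene list (y axis); red points were called higher, blue lower, gray not called, and black bars are list medians. The lists of NR2 receptors and COUP-TF cofactors center near 0, at -0.05 and -0.03, while the endothelial and fetal Leydig lists center at -3.18 and 1.58.

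Nr2f2 and Maf are also known from cell types other than interstitial progenitors, and the markers of several of these moved with GPI. All 10 endothelial markers were called lower (100%, beside 11.9% of all genes, and 8 to 10 under the alternatives), with a median log2 fold change of -3.18. The fewest came where 10 counts in every library were required. Sox17 and Tie1 were then not tested, since their counts with GPI went down to 8 and 3. No list gene that was still tested lost its call under that requirement. Their summed normalized counts were 7932, 8225, 7616, 8778 and 7792 with vehicle and 909, 1074, 744, 588 and 733 with GPI, without overlap. Cdh5 had the most counts with vehicle (log2 fold change -3.63, edgeR adjusted p = 3.76e-10, lower in 5 of 5 mice) and Kdr with GPI, and none was at 0 in all libraries. Of 8 venous and lymphatic genes, a list that includes Nr2f2, 2 were called higher (25%, beside 11.1% of all genes) and 2 lower (25%, beside 11.9%; 2 to 4 under the alternatives), with a median of -0.41. Nr2f2 itself took 66.3% of that list's counts, and the 7 others summed to 2532, 2678, 2198, 2423 and 2484 with vehicle and to 1674, 1587, 1462, 1428 and 1481 with GPI. Those sums did not overlap, and the calls of the list went both ways. Flt4, the VEGF-C receptor gene (log2 fold change -3.22, adjusted p = 1.07e-09), and Nrp2 (-1.04, adjusted p = 7.55e-06) fell, while Prox1, a lymphatic factor gene (1.01, adjusted p = 0.00416), and Pdpn (0.42, adjusted p = 0.00923) rose, each in 5 of 5 mice. Ephb4, a venous marker, was at -0.29 (adjusted p = 0.119). The part of endothelial cells in the values of Nr2f2 was not tested.

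Macrophage markers were called lower in 8 of 9 tested genes (88.9%, beside 11.9% of all genes, and 5 to 8 under the alternatives) and higher in 0. Their median was -1.91, in the direction opposite to Maf. The fewest calls came where 10 counts in every library were required. C1qa, C1qc and Cx3cr1 were then not tested, and the median was -1.29. The list of 10 summed to 1139, 931, 941, 819.8 and 862 normalized counts with vehicle and to 488, 429.7, 452, 269 and 252 with GPI. Every GPI sum lay below every vehicle sum, and Lyz2, a lysozyme gene, had the most counts of these markers. Csf1r, the receptor that macrophages depend on, fell (log2 fold change -2.22, edgeR adjusted p = 5.35e-06, lower in 5 of 5 mice), Adgre1 was at -0.26 (adjusted p = 0.512), and no marker was at 0 in all libraries, although C1qa reached 0 in at least 1. The part of macrophages in the values of Maf was not tested.

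Mural markers, of pericytes and smooth muscle, were called lower in 7 of 10 tested genes (70%, beside 11.9% of all genes) and higher in 0 (median -1.50). They summed to 10974, 12436, 12062, 11812 and 11113 with vehicle and to 3619.6, 3316, 3373, 2899 and 3326 with GPI, without overlap. Abcc9 had the most counts with vehicle and Acta2 with GPI. Abcc9 fell with a log2 fold change of -3.93 (edgeR adjusted p = 4.33e-11, lower in 5 of 5 mice), whereas the contractile genes Acta2 (-0.12, adjusted p = 0.508), Myh11 (-0.15, adjusted p = 0.444) and Tagln (-0.09, adjusted p = 0.823) were not called. No mural marker was at 0 in all libraries. Their part in the results was not tested.

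Fetal Leydig markers, of cells that arise from the interstitial progenitors, were called higher in 8 of 8 tested genes (100%, beside 11.1% of all genes), with a median log2 fold change of 1.58. Their summed normalized counts were 2118, 3926, 5216, 2902 and 6794 with vehicle and 12099.9, 12650.4, 18976, 21686 and 16202 with GPI. The groups were apart. Hsd3b1 had the most counts with vehicle (log2 fold change 1.75, edgeR adjusted p = 2.71e-05, higher in 5 of 5 mice). Cyp11a1 had the most with GPI, where its mean was 5868 ± 1593 normalized counts. Sult1e1, with 0 counts with vehicle and at most 3 with GPI, and Insl3, with at most 7 counts in a library, were not tested. Nr5a1, among the genes called, is also in the list of gonadal transcription factors above. Sertoli markers were called higher in 7 of 11 tested genes (63.6%, beside 11.1% of all genes; 5 to 7 under the alternatives) and lower in 0 (median 0.54), and summed to 3938, 5830.3, 4496, 5738 and 6068 with vehicle and 4374, 7709, 7939.8, 10220.1 and 7679 with GPI. The Sertoli sums overlapped, since M1 with GPI stayed in the vehicle range, but each mouse was higher with GPI, 5 of 5. Aard had the most counts and none was at 0 in all libraries. The call of Aard was lost without the replicate block (edgeR adjusted p = 0.0929) or without M3 (0.0502). Sox9 rose (log2 fold change 0.59, adjusted p = 0.000408). Not called were Amh (0.08, adjusted p = 0.842), Cldn11 (0.21, adjusted p = 0.172), Cst9 (-0.19, adjusted p = 0.422) and Fgf9 (-0.33, adjusted p = 0.169). The part of Leydig and Sertoli cells in the results was not tested.

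**Figure D5:**
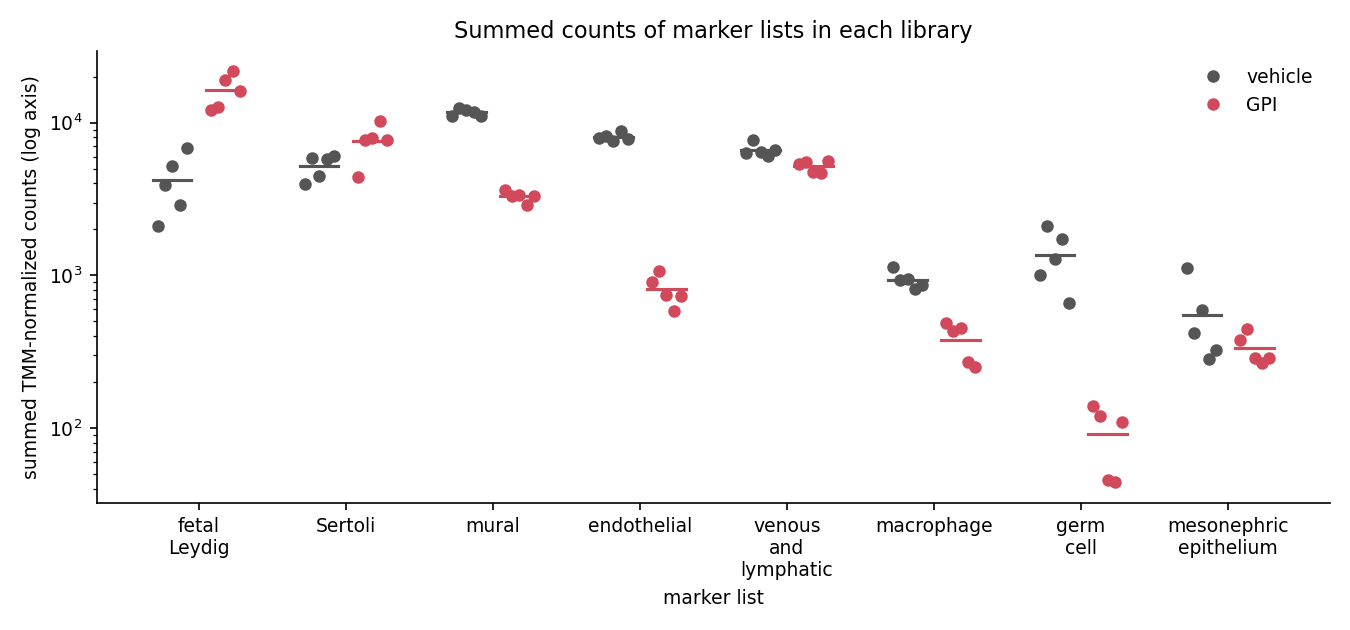
Summed TMM-normalized counts (y axis, log scale) of 8 marker lists (x axis) in each library, gray with vehicle and red with GPI; short lines are means of 5 libraries. Endothelial sums lie between 588 and 1074 with GPI and between 7616 and 8778 with vehicle, and the fetal Leydig sums are apart in the other direction.

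Mesonephric epithelium was examined because the mesonephros was removed only after culture. Of its 8 markers 3 were tested, with 0 called higher and 1 lower (33.3%, beside 11.9% of all genes; 0 or 1 under the alternatives). The gene called lower was Epcam, which germ cells also express (log2 fold change -2.19, edgeR adjusted p = 0.00145, lower in 5 of 5 mice). Where 10 counts in every library were required, Epcam was not tested, since its counts with GPI went down to 6. The summed normalized counts were 1119, 421, 592, 285 and 325 with vehicle and 376, 446, 289, 267 and 288 with GPI. The vehicle gonad of M1 was the highest of the 10 libraries, as it was for Nr2f1, the other libraries overlapped between treatments, and 4 of 5 mice were lower with GPI. Pax8 had the most counts with vehicle (178.7 ± 136, SD) and Gata3 with GPI, and none was at 0 in all libraries. The part of mesonephric tissue in the Nr2f1 value of M1 was not tested.

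The remaining lists covered germ cells, coelomic epithelium and pregranulosa cells. Germ cell markers were called lower in 5 of 6 tested genes (83.3%, beside 11.9% of all genes, and 1 to 5 under the alternatives), with a median of -4.76. The fewest came where 10 counts in every library were required. Only Ddx4 was tested there, and it was called, at -2.73. Dazl, Dppa3, Sall4, Mael and Dnd1 were left out, each below 10 counts in some GPI library. The germ cell sums were 999.9, 2113, 1274, 1740.2 and 664 normalized counts with vehicle. With GPI they were 139.9, 120.0, 45.6, 44.2 and 110.1, without overlap. Dazl had the most counts with vehicle and Ddx4 with GPI. Coelomic epithelium gave 1 call higher and 0 lower among 6 tested genes (16.7% higher, beside 11.1% of all genes; 0 to 2 under the alternatives; median 0.11). Its sums, 2002, 1795, 1810.1, 1553 and 1508 with vehicle and 2057, 2019, 2034, 1874 and 2065 with GPI, overlapped in range but were higher with GPI in 5 of 5 mice; Aldh1a2 had the most counts. Pregranulosa markers gave 1 call higher and 1 lower among 5 tested (20% each way, beside 11.1% and 11.9% of all genes; median -0.19), with sums of 1791, 1867, 1827, 1589.8 and 1523 and of 1489.7, 1255, 1305, 986 and 1394, apart between treatments, and Wnt4 had the most counts. The calls higher were Bmp2 among these, not called without the replicate block (adjusted p = 0.0574) or without M4 (0.0539), and Upk1b in the coelomic list, not called without M3 (0.0643). No marker of these lists was at 0 in all libraries, Muc16 was not in the table, and the part of these cells in the results was not tested.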

How the data were processed

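RNA of 10 cultured male gonads was sequenced, 5 with GPI and 5 with vehicle. The authors deposited raw counts (unit: count) per gene, made, per the submitters' processing notes, with STAR 2.5 and featureCounts of Subread 1.5.0-p1 on mm10; the table held 0 other value columns. Counts were used as deposited. Genes were filtered by filterByExpr (minimum count 10, total 15), scaled by TMM and fitted by edgeR's quasi-likelihood method with mouse and treatment as terms, with Benjamini-Hochberg adjustment over the 13941 tested genes. Log2 ratios of single mice used a prior count of 2. Libraries of 1 treatment were not duplicates: chi-square per degree of freedom, over genes with at least 100 counts, ran from 6.42 to 27.8. Pairing by mouse followed the labels; deviations from the treatment mean correlated at 0.060 within mice and -0.015 between mice on average, across genes, which are not independent replicates. Confidence intervals came from edgeR's fitted variance, which includes counting error and the spread left after the mouse and treatment terms. That variance was drawn toward the trend of all tested genes. The intervals therefore do not measure the spread of the log2 ratios between mice alone.

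The 4 genes and the 18 gene lists were chosen with earlier results of these data known. Named were the 4 genes, the first 3 genes of each list, the 2 of each list with the smallest p, genes at 0, and for each of the 4 genes the 3 others with the closest log2 ratios over 5 mice; not all are reported. Counts and medians of a list cover its tested genes and sums its genes in the table; some genes first listed were left out of all of these. Overlapping entries and other list genes in the text were named after their values were seen. The alternatives tried were another test (limma-voom, or DESeq2), another scaling (total counts alone, or the size factors of DESeq2), a treatment-only design without the replicate block, another filter (none, or 10 counts or more in all libraries), a prior count of 0.5 for the ratios, and leaving out each mouse in turn. Sequences came from RefSeq (GRCm38.p6) and GENCODE M21. The procedure was tested on simulated data. Software was edgeR 4.0.16, DESeq2 1.42.0 and limma 3.58.1 under R 4.3.3, and pandas 2.3.3, matplotlib 3.10.9 and numpy 2.4.6 under Python 3.11.15.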

Additional observations from a re-analysis of the deposited data

Results flagged for a closer look

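The vehicle gonad of M1 had 517 normalized counts of Nr2f1, far from the other 4 vehicle gonads, which had 173 to 212. Its gap to the nearest of them was 0.886 of the group's whole range, above Dixon's critical value of 0.71 for 5 samples. Chance alone marks about 1 in 20 groups in this way, and 8 groups were examined. The same library had the highest sum of mesonephric epithelium markers, 1119 normalized counts. The cause was not tested.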

How the results depend on the processing

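Maf kept its direction and its call under all 12 alternatives, with log2 fold changes from 0.38 to 0.57. Tcf21 was lower under all 12 and passed the threshold in 9; leaving out single mice gave log2 fold changes from -0.37 to -0.26, and the call was lost without M2, M3 or M4, with fewer samples. Nr2f2 was lower under all 12 and passed only with total counts in place of TMM, at -0.23. Nr2f1 passed under none; leaving out single mice gave -0.072 to 0.35, the sign turning without replicate 2, M2 (-0.072), and the cause was not tested. The difference between Nr2f1 and Nr2f2 stayed positive, from 0.08 to 0.58, in 6 of 6 alternatives. Without the replicate block that pairs gonads by mouse, 3108 genes were called; over all alternatives the count ran from 2311 to 3472. The median log2 fold change of all genes ran from -0.03 with total counts only to 0.02.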
